A study of Saccharomyces cerevisiae with 14 samples.

Results

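The genes described are the 35 genes for the subunits of the yeast proteasome and its closest assembly and quality factors, chosen by name from the known makeup of the complex and found by the gene names of the probe sets. They were 35 of the 5449 *Saccharomyces cerevisiae* genes named on the arrays, and all 35 were among the 5443 genes tested. Each was measured by 1 probe set. The set held 14 genes of the core particle, which are the 7 of the alpha ring and the 7 of the beta ring, 19 genes of the regulatory particle, which are 10 of the base and 9 of the lid, and 2 accessory genes, *UMP1* and *ECM29*.

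The study compared the thermotolerant strain NFRI 3236, the thermosensitive strain NFRI 3155 and the standard strain S288C, each grown in YPD medium. Cells were heated at 39°C for 30 min or left untreated at 30°C, and their polyadenylated RNA was hybridized to Affymetrix yeast arrays that carry probes for *S. cerevisiae* and for *Schizosaccharomyces pombe*. There were 2 arrays at 39°C and 2 at 30°C for NFRI 3236, 2 and 2 for NFRI 3155, and 3 and 3 for S288C, which makes 14 arrays. The labels name no transgene or deletion, and each strain stands for a single genetic background, so strain and background cannot be told apart.

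The proteasome is the large protease of the cytosol and nucleus that breaks down proteins tagged with ubiquitin. Its core particle is a barrel of alpha rings, which form the gate, and beta rings, which hold the cutting sites inside. The regulatory particle caps the barrel: the base contains the ring of ATPases that unfolds substrates and threads them into the core, and the lid removes the ubiquitin chain. Ump1 is a chaperone that helps the barrel close and is then degraded, and Ecm29 binds core and cap together. In yeast, many of these genes share a promoter element bound by the activator Rpn4, itself a short-lived substrate of the proteasome. Misfolded proteins accumulate on heating, and the complex is one of the routes by which a cell removes them.

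A level is given as a multiple of the 75th percentile signal of its array, so that a value of 4 is a signal 4 times that percentile. The percentile itself lay between 95.7 and 438 signal units across the arrays. All 35 genes exceeded the background on each of the 14 arrays, with the background taken as the 95th percentile among *S. pombe* probe sets, and none of the 24 *S. pombe* probe sets named for proteasome genes was above it on all arrays. The heat label was borne out by *HSP104*, *HSP12*, *HSP26* and *SSA4*, all 4 of which rose in each strain. The added poly-A control transcripts differed between groups: 0, 0 and 1 of 12 control sets were above background on the S288C 30°C arrays, against 8 to 12 on the other arrays. The 3′ to 5′ signal ratio of *ACT1* was also highest on those arrays, at 1.84 to 2.05, against 1.16 to 1.58 elsewhere, and that of *WBP1* was 10.9 on the second NFRI 3236 39°C array, against 1.41 to 5.86 elsewhere. The part of these measures in the results was not tested.

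On heating, most of the proteasome genes rose in each of the 3 strains, and none fell. At 39°C against 30°C, 23 of 35 were higher in NFRI 3236, 25 of 35 in NFRI 3155 and 31 of 35 in S288C (limma, adjusted p under 0.05). Over all tested genes the shares called higher were 15.7% in NFRI 3236, 18.1% in NFRI 3155 and 25.2% in S288C, and those called lower 23.5%, 24.1% and 28.2%. The median log2 change of the members was 0.87 in NFRI 3236, 0.75 in NFRI 3155 and 1.11 in S288C, beside medians over all genes of -0.10, -0.08 and -0.04 in the same strains. The sign was positive for 35, 34 and 35 of the members in that order of strains. The 39°C arrays lay above the 30°C arrays without overlap for 31 members in NFRI 3236, 31 in NFRI 3155 and 32 in S288C, where 30.8%, 33.7% and 30.4% of all genes did so.

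**Figure D1:**
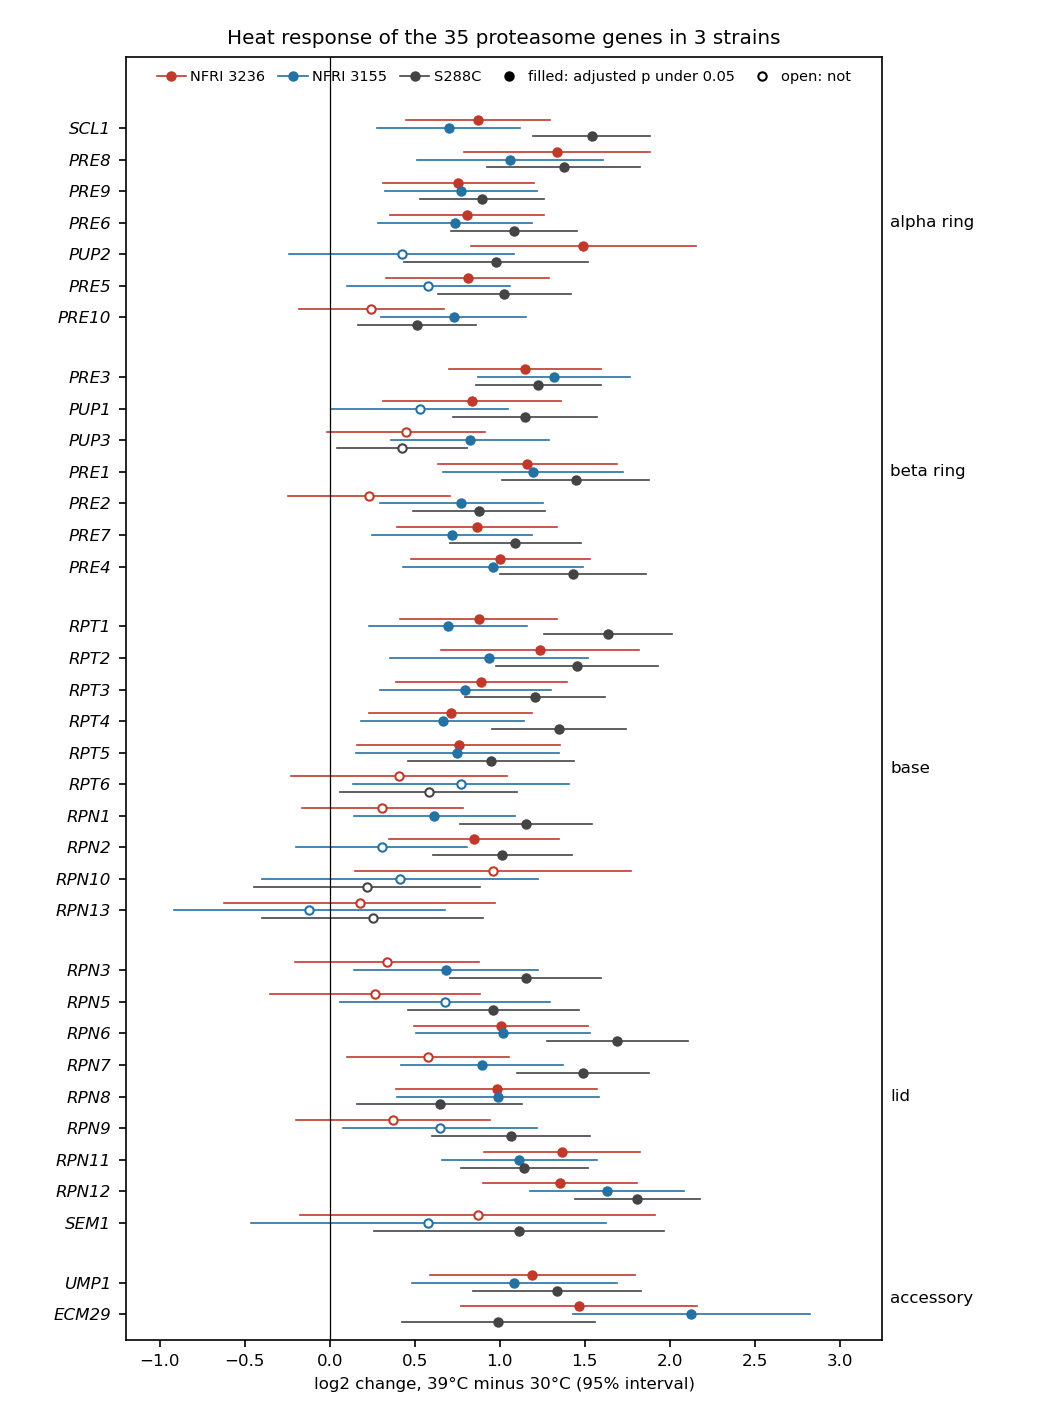
Log2 change at 39°C minus 30°C (x axis) of each of the 35 proteasome genes (y axis, grouped by their place in the complex) in NFRI 3236, NFRI 3155 and S288C, with 95% intervals from limma and filled points where the adjusted p was under 0.05. Of all points, only *RPN13* in NFRI 3155 lies left of zero, and S288C lies farthest right for 26 of the 35 genes. The order of the strains was not counted over all genes.

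The median member level on each array shows the same shift before any test. On the log2 scale it was 2.86 and 2.83 on the NFRI 3236 39°C arrays and 1.94 and 1.97 on the 30°C arrays. In NFRI 3155 it was 2.79 and 2.36 at 39°C and 1.77 and 1.94 at 30°C, and in S288C 3.08, 3.04 and 2.81 at 39°C and 1.74, 1.82 and 1.85 at 30°C. The temperatures did not overlap in any strain, and the second NFRI 3155 39°C array was the lowest of the heated ones. The count of 25 in NFRI 3155 was the least steady: it was 12 when either the first 39°C or the first 30°C array of that strain was left out, and 7 when the arrays were not shifted to a common percentile.

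Core and regulatory particle had close median changes. In the core, 11 of 14 genes rose in NFRI 3236, 11 in NFRI 3155 and 13 in S288C, with median log2 changes of 0.85, 0.75 and 1.09 in that order. In the regulatory particle, 10 of 19 rose in NFRI 3236, 12 in NFRI 3155 and 16 in S288C, with medians of 0.85, 0.69 and 1.14. Within these, the alpha ring gave 6, 5 and 7 of 7, the beta ring 5, 6 and 6 of 7, the base 6, 6 and 7 of 10 and the lid 4, 6 and 9 of 9, in the same order of strains. The shares of all tested genes called higher were 15.7%, 18.1% and 25.2% in that order. The median log2 level of the core minus that of the regulatory particle was 0.50 and 0.97 at 39°C and 0.63 and 0.46 at 30°C in NFRI 3236. It was 0.43 and 0.72 at 39°C and 0.43 and 0.50 at 30°C in NFRI 3155, and 0.68, 0.38 and 0.26 at 39°C and 0.59, 0.54 and 0.41 at 30°C in S288C. These differences overlapped between temperatures in every strain, so no change in the balance of the particles was resolved. Since each gene has its own probes, they say nothing of how much of either particle there is.

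Of the 35 genes, 19 rose in all 3 strains, 9 in 2 strains, 4 in 1 strain and 3 in none. Of all tested genes, 9.06% were called higher in all 3 strains. The 19 were *SCL1*, *PRE8*, *PRE9* and *PRE6* of the alpha ring, *PRE3*, *PRE1*, *PRE7* and *PRE4* of the beta ring, the ATPases *RPT1*, *RPT2*, *RPT3*, *RPT4* and *RPT5*, the lid genes *RPN6*, *RPN8*, *RPN11* and *RPN12*, and *UMP1* and *ECM29*. Only *PRE8*, *PRE3*, *PRE1*, *RPN11* and *RPN12* kept these calls in all 3 strains under all 22 alternatives that used limma. The 3 that passed the test nowhere, *RPT6*, *RPN10* and *RPN13*, all belong to the base. A few members lie close together on the chromosomes, with 1 gene between *PRE4* and *RPN12*, 1 between *RPT4* and *RPN8* and 4 between *PRE2* and *RPN7*.

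In the alpha ring, which gates the barrel, *PRE8* rose in each strain. Its level was 9.37 and 11.8 at 39°C and 4.24 and 4.10 at 30°C in NFRI 3236, 8.59 and 8.07 at 39°C and 3.99 and 4.0 at 30°C in NFRI 3155, and 13.7, 9.34 and 7.70 at 39°C and 3.65, 3.53 and 4.36 at 30°C in S288C. All heated arrays lay above all untreated ones. The log2 changes were 1.34 (SE 0.25, adjusted p = 0.00121) in NFRI 3236, 1.06 (SE 0.25, adjusted p = 0.00452) in NFRI 3155 and 1.38 (SE 0.21, adjusted p = 9.95e-05) in S288C.

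*PUP2*, another alpha subunit, behaved less evenly. In NFRI 3236 it stood at 7.13 and 7.35 at 39°C and 2.30 and 2.88 at 30°C, the largest rise of any member in that strain at 1.49 (SE 0.31, adjusted p = 0.00199). In NFRI 3155 it stood at 6.34 and 3.63 at 39°C and 3.20 and 4.0 at 30°C, so that the second heated array lay among the untreated ones, and the log2 change was 0.42 (SE 0.31, adjusted p = 0.289). S288C gave 4.89, 8.22 and 6.05 at 39°C and 2.57, 3.57 and 3.48 at 30°C, without overlap, a rise of 0.98 (SE 0.25, adjusted p = 0.00515). The NFRI 3236 change exceeded that of NFRI 3155 by 1.07 (95% interval 0.13 to 2.01), which did not pass the test over all genes (adjusted p = 0.24).

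*SCL1*, a further alpha subunit, rose in each strain but reached its highest level in S288C. It was at 9.04 and 10.8 at 39°C and 5.36 and 5.45 at 30°C in NFRI 3236, at 6.90 and 7.0 at 39°C and 4.24 and 4.31 at 30°C in NFRI 3155, and at 14.4, 13.4 and 10.9 at 39°C and 4.38, 4.34 and 4.50 at 30°C in S288C. The temperatures were far apart in every strain and the untreated levels close together. The log2 rise was 0.87 (SE 0.20, adjusted p = 0.00345) in NFRI 3236, 0.70 (SE 0.20, adjusted p = 0.0109) in NFRI 3155 and 1.54 (SE 0.16, adjusted p = 3.59e-06) in S288C. In NFRI 3155 the call was lost when either of the 30°C arrays was left out (0.69 without the first, adjusted p = 0.0648, and 0.71 without the second, adjusted p = 0.0541). Of the other alpha genes, *PRE9* and *PRE6* rose in each strain, by 0.76 and 0.81 in NFRI 3236, 0.77 and 0.74 in NFRI 3155 and 0.89 and 1.09 in S288C. *PRE5* rose in NFRI 3236 and S288C, by 0.81 and 1.03, and *PRE10* in NFRI 3155 and S288C, by 0.73 and 0.51. Single arrays decided several of these calls. *PRE9* was lost without the second 30°C array in NFRI 3236 (0.71) and without the first 39°C or first 30°C array in NFRI 3155 (0.58 to 0.71), and *PRE6* without the second 39°C or first 30°C array in NFRI 3236 (0.69 to 0.76) and the first 39°C or first 30°C array in NFRI 3155 (0.61 to 0.65). *PRE5* in NFRI 3236 was lost without the first 39°C or second 30°C array (0.51 to 0.66), and *PRE10* without the first 30°C array in NFRI 3155 (0.67) and the second 39°C or the third 30°C array in S288C (0.39 to 0.50).

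In the beta ring, 3 subunits carry the cutting sites: *PRE3* the caspase-like, *PUP1* the trypsin-like and *PRE2* the chymotrypsin-like one. *PRE3* levels were 11 and 11.8 at 39°C and 4.59 and 5.79 at 30°C in NFRI 3236, 12.9 and 10.7 at 39°C and 4.92 and 4.51 at 30°C in NFRI 3155, and 11.9, 11.4 and 9.90 at 39°C and 5.14, 4.82 and 4.22 at 30°C in S288C. Both the heated and the untreated ranges were nearly shared by the strains. Its log2 rise was 1.15 (SE 0.21, adjusted p = 0.000848) in NFRI 3236, 1.32 (SE 0.21, adjusted p = 0.000225) in NFRI 3155 and 1.23 (SE 0.17, adjusted p = 4.65e-05) in S288C.

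*PRE2* had 11.5 and 10.9 at 39°C and 9.17 and 9.96 at 30°C in NFRI 3236, 11.7 and 9.38 at 39°C and 6.20 and 6.06 at 30°C in NFRI 3155, and 11.3, 12.5 and 8.67 at 39°C and 5.33, 6.60 and 5.63 at 30°C in S288C. The heated levels of the strains overlapped, while the untreated level was highest in NFRI 3236. The log2 change was 0.23 (SE 0.22, adjusted p = 0.446) in NFRI 3236, and *PRE2* rose by 0.77 (SE 0.22, adjusted p = 0.0126) in NFRI 3155 and by 0.88 (SE 0.18, adjusted p = 0.00117) in S288C. The NFRI 3155 call was lost without the first 39°C array or either 30°C array of that strain (0.61 to 0.79, adjusted p up to 0.079).

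*PUP1* stood at 7.35 and 10.8 at 39°C and 5.05 and 4.91 at 30°C in NFRI 3236, at 5.25 and 4.37 at 39°C and 3.41 and 3.23 at 30°C in NFRI 3155, and at 8.80, 7.62 and 6.17 at 39°C and 2.92, 3.60 and 3.61 at 30°C in S288C. The temperatures did not overlap in any strain. It rose by 0.84 (SE 0.24, adjusted p = 0.0147) in NFRI 3236 and by 1.15 (SE 0.20, adjusted p = 0.000285) in S288C, and its change in NFRI 3155 was 0.53 (SE 0.24, adjusted p = 0.0951). The NFRI 3236 call was lost without its second 39°C array or either 30°C array (0.56 to 0.86, adjusted p up to 0.134).

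*PRE1* and *PRE7* are beta subunits without a cutting site. *PRE1* was at 7.38 and 9.66 at 39°C and 3.54 and 4.02 at 30°C in NFRI 3236, at 5.35 and 5.15 at 39°C and 2.26 and 2.33 at 30°C in NFRI 3155, and at 11.9, 8.83 and 7.06 at 39°C and 3.63, 3.05 and 3.28 at 30°C in S288C. NFRI 3155 was lowest at both temperatures, yet the log2 rises were close, at 1.16 (SE 0.25, adjusted p = 0.00236) in NFRI 3236, 1.19 (SE 0.25, adjusted p = 0.0016) in NFRI 3155 and 1.45 (SE 0.20, adjusted p = 4.71e-05) in S288C. *PRE7* had 10.2 and 9.16 at 39°C and 5.74 and 4.90 at 30°C in NFRI 3236, 6.95 and 4.90 at 39°C and 3.64 and 3.46 at 30°C in NFRI 3155, and 9.21, 11.4 and 9.06 at 39°C and 4.43, 4.92 and 4.51 at 30°C in S288C. It rose by 0.87, 0.72 and 1.09 on the log2 scale in these strains. The NFRI 3236 call was lost without its second 30°C array (0.75, adjusted p = 0.0612), and the NFRI 3155 call without the first 39°C or either 30°C array (0.47 to 0.76, adjusted p up to 0.135). *PRE4* rose in each strain, by 1.00, 0.96 and 1.43, while *PUP3* was called in NFRI 3155 only, at 0.82, with 0.45 in NFRI 3236 and 0.42 in S288C, and lost that call without the first 39°C or second 30°C array (0.62 to 0.79).

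The base holds the ATPase ring, the large scaffolds *RPN1* and *RPN2* and the ubiquitin receptors *RPN10* and *RPN13*. *RPT1*, one of the ATPases, had 7.09 and 6.56 at 39°C and 3.52 and 3.92 at 30°C in NFRI 3236, 6.37 and 5.24 at 39°C and 3.32 and 3.84 at 30°C in NFRI 3155, and 9.43, 7.99 and 7.0 at 39°C and 2.29, 2.66 and 2.87 at 30°C in S288C. S288C was the lowest of the strains untreated, and its heated range reached the highest level. *RPT1* rose by 0.88 (SE 0.22, adjusted p = 0.00605) in NFRI 3236, by 0.69 (SE 0.22, adjusted p = 0.0193) in NFRI 3155 and by 1.64 (SE 0.18, adjusted p = 5e-06) in S288C. The NFRI 3236 call was lost without its first 30°C array (0.80, adjusted p = 0.0511), and the NFRI 3155 call without the first 39°C or the first 30°C array (0.55 and 0.59).

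*RPT2*, the ATPase whose tail opens the gate of the core, was at 5.42 and 5.24 at 39°C and 2.15 and 2.37 at 30°C in NFRI 3236, at 4.27 and 2.71 at 39°C and 1.43 and 2.20 at 30°C in NFRI 3155, and at 6.41, 7.75 and 6.77 at 39°C and 2.08, 2.86 and 2.74 at 30°C in S288C. The temperatures were apart in each strain, by least in NFRI 3155. *RPT2* rose by 1.24 (SE 0.27, adjusted p = 0.00296) in NFRI 3236, by 0.94 (SE 0.27, adjusted p = 0.0135) in NFRI 3155 and by 1.46 (SE 0.22, adjusted p = 0.000104) in S288C. The NFRI 3155 call was lost without the first 39°C or the first 30°C array (0.61 and 0.63). *RPT3*, *RPT4* and *RPT5* rose by 0.71 to 0.89 in NFRI 3236, 0.66 to 0.80 in NFRI 3155 and 0.95 to 1.35 in S288C. The NFRI calls of these 3 genes were lost without single arrays of their own strain. For *RPT3* this held for 2 arrays in each NFRI strain (0.62 to 0.75 in NFRI 3236 and 0.65 to 0.73 in NFRI 3155), and for *RPT4* for 3 in each (0.60 to 0.77 and 0.58 to 0.72). The *RPT5* call was lost without any of 9 arrays in NFRI 3236, other strains included, down to 0.34 (adjusted p = 0.374), and of 8 in NFRI 3155, down to 0.65. *RPT6* gave 0.41, 0.77 and 0.58 in the same strains, none of which passed the test (adjusted p = 0.299, 0.0506 and 0.057).

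Of the scaffolds, *RPN1* had 6.85 and 6.78 at 39°C and 4.69 and 6.45 at 30°C in NFRI 3236, 7.95 and 10.0 at 39°C and 5.67 and 6.01 at 30°C in NFRI 3155, and 8.84, 7.45 and 7.93 at 39°C and 3.16, 3.84 and 3.89 at 30°C in S288C. Its rise was 0.62 (SE 0.22, adjusted p = 0.0377) in NFRI 3155 and 1.15 (SE 0.18, adjusted p = 0.000126) in S288C, with a value of 0.31 (SE 0.22, adjusted p = 0.288) in NFRI 3236. The NFRI 3155 call was lost without either 30°C array or the second 39°C array of that strain, or the second or the third S288C 30°C array (0.45 to 0.66). *RPN2* had 3.24 and 2.78 at 39°C and 1.89 and 1.47 at 30°C in NFRI 3236, 2.98 and 4.58 at 39°C and 3.15 and 2.84 at 30°C in NFRI 3155, and 5.96, 6.40 and 5.52 at 39°C and 2.92, 3.10 and 2.81 at 30°C in S288C. The NFRI 3236 levels were the lowest of the untreated ones, and in NFRI 3155 the first heated array lay between the untreated arrays. *RPN2* rose by 0.85 (SE 0.23, adjusted p = 0.0114) in NFRI 3236 and by 1.02 (SE 0.19, adjusted p = 0.000547) in S288C, and its change in NFRI 3155 was 0.30 (SE 0.23, adjusted p = 0.312). The NFRI 3236 call was lost without its first 39°C array (0.73, adjusted p = 0.0647) or its second 30°C array (0.67, adjusted p = 0.102).

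The ubiquitin receptors *RPN10* and *RPN13* passed the heat test in no strain. *RPN13* had 3.01 and 5.38 at 39°C and 3.83 and 3.32 at 30°C in NFRI 3236, 5.09 and 2.14 at 39°C and 3.35 and 3.85 at 30°C in NFRI 3155, and 9.17, 6.18 and 6.01 at 39°C and 5.89, 5.50 and 6.23 at 30°C in S288C. Heated and untreated arrays overlapped in each strain, and the log2 changes of 0.18, -0.12 and 0.25 had 95% intervals reaching from -0.62 to 0.97, -0.92 to 0.68 and -0.40 to 0.90, of which the NFRI 3236 interval still holds the median of the members. *RPN10* had 4.94 and 7.09 at 39°C and 3.10 and 2.97 at 30°C in NFRI 3236, 3.87 and 3.51 at 39°C and 2.97 and 2.59 at 30°C in NFRI 3155, and 1.45, 4.03 and 3.57 at 39°C and 2.43, 2.22 and 2.44 at 30°C in S288C. The first S288C 39°C array was the only heated one below its untreated arrays. The changes of 0.96, 0.41 and 0.22 missed the test in all 3 strains (adjusted p = 0.0581, 0.404 and 0.572), but without that single array *RPN10* was called in S288C at 0.68 (adjusted p = 0.00852) and in NFRI 3236 at 0.96 (adjusted p = 0.00252). *RPT6* in S288C behaved likewise, at 0.87 (adjusted p = 0.00331) without the same array.

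**Figure D2:**
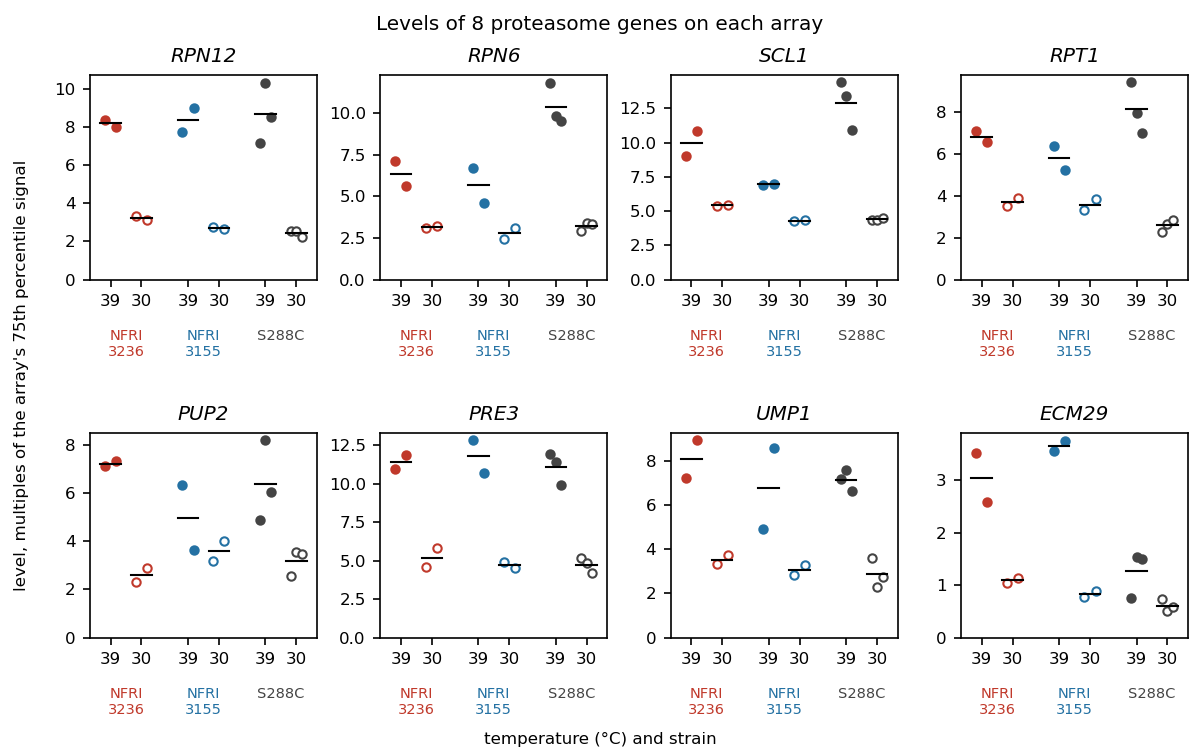
Level of 8 proteasome genes on every array, as a multiple of the 75th percentile signal of the array (linear y axes from zero), with 39°C (filled) left of 30°C (open) in NFRI 3236, NFRI 3155 and S288C; points are arrays and bars are group means. *RPN12*, *PRE3* and *RPN6* are separated by temperature in all strains, *PUP2* overlaps in NFRI 3155, and *ECM29* is highest on the heated NFRI arrays, at 2.58 to 3.74.

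In the lid, which removes ubiquitin chains, *RPN12* had the largest rise in NFRI 3155 and S288C. It was at 8.38 and 8.04 at 39°C and 3.32 and 3.10 at 30°C in NFRI 3236, at 7.75 and 9.04 at 39°C and 2.77 and 2.63 at 30°C in NFRI 3155, and at 7.17, 10.3 and 8.52 at 39°C and 2.57, 2.54 and 2.25 at 30°C in S288C. Every heated array was far above every untreated one. The fold changes were 2.56 in NFRI 3236 (log2 1.35, SE 0.21, adjusted p = 0.000285), 3.10 in NFRI 3155 (log2 1.63, SE 0.21, adjusted p = 4.59e-05) and 3.51 in S288C (log2 1.81, SE 0.17, adjusted p = 1.58e-06).

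*RPN11*, the metalloprotease that cuts the ubiquitin chain off, had 3.96 and 5.18 at 39°C and 1.72 and 1.80 at 30°C in NFRI 3236, 4.36 and 3.56 at 39°C and 1.97 and 1.68 at 30°C in NFRI 3155, and 5.44, 5.08 and 4.27 at 39°C and 2.22, 2.25 and 2.19 at 30°C in S288C. It rose by 1.37 (SE 0.21, adjusted p = 0.000291), 1.11 (SE 0.21, adjusted p = 0.000922) and 1.14 (SE 0.17, adjusted p = 0.000101) on the log2 scale in these strains. *RPN8*, its inactive partner, had 5.77 and 5.22 at 39°C and 2.38 and 3.24 at 30°C in NFRI 3236, 7.08 and 3.92 at 39°C and 2.93 and 2.40 at 30°C in NFRI 3155, and 6.63, 8.30 and 6.70 at 39°C and 4.24, 5.06 and 4.48 at 30°C in S288C. The temperatures did not overlap for either gene, and *RPN8* rose by 0.98, 0.99 and 0.65 (adjusted p = 0.0127, 0.0107 and 0.027). Each *RPN8* call was lost without some single array of its own strain. This was the first 39°C (0.91) or the first 30°C array (0.76) in NFRI 3236, the first 39°C (0.56) or the second 30°C array (0.85) in NFRI 3155, and the second 39°C, the first 30°C or the third 30°C array in S288C (0.54 to 0.63).

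*RPN6*, the lid subunit that clamps the cap onto the core, had 7.11 and 5.60 at 39°C and 3.08 and 3.20 at 30°C in NFRI 3236, 6.73 and 4.63 at 39°C and 2.44 and 3.11 at 30°C in NFRI 3155, and 11.8, 9.80 and 9.54 at 39°C and 2.92, 3.38 and 3.33 at 30°C in S288C. The untreated levels of the strains overlapped, and the heated S288C arrays were above all other heated ones. *RPN6* rose by 1.01 (SE 0.24, adjusted p = 0.00458), 1.02 (SE 0.24, adjusted p = 0.00362) and 1.69 (SE 0.19, adjusted p = 8.64e-06). The other lid genes, *RPN3*, *RPN5*, *RPN7*, *RPN9* and *SEM1*, all rose in S288C, by 0.96 to 1.49. None of these 5 passed the test in NFRI 3236, where they gave 0.27 to 0.87, and of them *RPN3* and *RPN7* rose in NFRI 3155, by 0.69 and 0.90. The *RPN3* call in NFRI 3155 was lost without any 1 of 9 arrays (0.55 to 0.79, adjusted p up to 0.199), the *RPN7* call without the first NFRI 3155 39°C array (0.62, adjusted p = 0.0507), and the *SEM1* call in S288C without any of 4 S288C arrays (1.00 to 1.08). *SEM1*, the smallest subunit, had the widest spread, with 11.2 and 2.65 at 39°C in NFRI 3155, against 3.91 and 3.39 at 30°C.

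Both accessory genes rose in each strain. *UMP1* had 7.26 and 8.96 at 39°C and 3.32 and 3.75 at 30°C in NFRI 3236, 4.93 and 8.62 at 39°C and 2.86 and 3.30 at 30°C in NFRI 3155, and 7.22, 7.60 and 6.67 at 39°C and 3.61, 2.28 and 2.76 at 30°C in S288C. It rose by 1.19 (SE 0.28, adjusted p = 0.00459), 1.09 (SE 0.28, adjusted p = 0.00689) and 1.34 (SE 0.23, adjusted p = 0.000273) on the log2 scale, and the NFRI 3155 call was lost without the second 39°C or the first 30°C array (0.68 and 0.98). *ECM29* had 3.51 and 2.58 at 39°C and 1.04 and 1.14 at 30°C in NFRI 3236, 3.55 and 3.74 at 39°C and 0.779 and 0.892 at 30°C in NFRI 3155, and 0.746, 1.54 and 1.49 at 39°C and 0.741, 0.507 and 0.580 at 30°C in S288C. The first heated S288C array barely exceeded the untreated ones. *ECM29* rose by 1.47 (SE 0.32, adjusted p = 0.00302) in NFRI 3236, 2.13 (SE 0.32, adjusted p = 0.000163) in NFRI 3155 and 0.99 (SE 0.26, adjusted p = 0.00638) in S288C. With 4.37-fold, its rise in NFRI 3155 was the largest of any member in any strain.

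The strains were next compared for the size of the heat response. The change was largest in S288C for 26 of the 35 members, in NFRI 3155 for 6 and in NFRI 3236 for 3, and smallest in NFRI 3155 for 18, in NFRI 3236 for 13 and in S288C for 4. This order was not counted over all genes, of which 15.7% in NFRI 3236, 18.1% in NFRI 3155 and 25.2% in S288C were called higher on heating. Few of the members' differences between strains passed their own test. For NFRI 3236 minus S288C none of the 35 was called by limma, where 10.1% of all genes were, and the smallest adjusted p was 0.059. An unadjusted p under 0.05 was reached by 8 of the 35 and by 1490 of all 5443 genes. For NFRI 3155 minus S288C, *SCL1* and *RPT1* were called lower, where 8.87% of all genes were lower and 7.64% higher. For NFRI 3236 minus NFRI 3155 none was called, where 2.50% of all genes were, and 1 had an unadjusted p under 0.05, as had 872 of all 5443 genes. Of the 4 heat shock genes that checked the label, 3 were called lower for NFRI 3236 minus S288C, where 5.82% of all genes were. For NFRI 3236 minus NFRI 3155, 2 of the 4 were called lower, where 1.76% of all genes were. For NFRI 3155 minus S288C, 0 of the 4 were called. The part of this in the members' differences was not tested. The comparisons with S288C share its arrays, so their signs are not independent.

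The smaller rise of *SCL1* in NFRI 3155 than in S288C amounted to -0.84 on the log2 scale (SE 0.25, 95% interval -1.38 to -0.30, adjusted p = 0.0385), and that of *RPT1* to -0.94 (SE 0.28, 95% interval -1.54 to -0.34, adjusted p = 0.0356). For NFRI 3236 minus S288C the values of the same genes were -0.67 (95% interval -1.21 to -0.12, adjusted p = 0.106) and -0.76 (95% interval -1.36 to -0.16, adjusted p = 0.0962). The *SCL1* call was lost without any 1 of the 4 NFRI 3155 arrays, the 3 S288C 30°C arrays, the second S288C 39°C array or either NFRI 3236 30°C array, with values between -0.86 and -0.81. The *RPT1* call was lost without either NFRI 3155 30°C array, the second NFRI 3155 39°C array, the first or second S288C 30°C array or the second S288C 39°C array, with values between -1.05 and -0.80.

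For NFRI 3236 minus S288C the difference in heat response was negative for 29 members and positive for 6, and for 2950 and 2493 of all genes. For NFRI 3236 minus NFRI 3155 it was negative for 16 members and positive for 19, and for 2850 and 2593 of all genes. Over all tested genes the difference NFRI 3155 minus S288C was negative for 2876 and positive for 2567. Among the members it was negative for 28 and positive for 7. The largest positive one was that of *ECM29*, at 1.14 (95% interval 0.24 to 2.04), with an adjusted p of 0.078. *RPN12*, *PRE3* and *RPN11*, which rose strongly everywhere, differed from S288C by -0.18, 0.09 and -0.03 in NFRI 3155 (SE 0.27 each). Their 95% intervals reached from -0.76 to 0.41, -0.49 to 0.67 and -0.62 to 0.56, so equal responses were not shown.

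Genes tied to mating type and ploidy also differed between the strains. Of 3 haploid-specific genes (*STE4*, *STE18* and *FUS3*, of the pheromone pathway), 3 were lower at 39°C and 1 at 30°C in NFRI 3236 than in S288C, and 2 and 1 in NFRI 3155. Their summed level at 39°C was 0.495 to 0.505 in NFRI 3236 and 0.408 to 0.618 in NFRI 3155, against 1.23 to 1.74 in S288C, and at 30°C it was 0.266 to 0.404 and 0.194 to 0.199, against 0.452 to 0.581. Of these 3 genes, 2 to 3 were above background on each S288C 39°C array, but only 1 to 2 on each S288C 30°C and NFRI 3236 39°C array. Some alpha-specific and a-specific genes were also not above background on some NFRI arrays. Of all tested genes, 14.9% were lower at 39°C and 13.8% at 30°C in NFRI 3236, and 23.1% and 13.9% in NFRI 3155. The log2 difference of *STE4* at 30°C was -0.95 in NFRI 3236 and -1.78 in NFRI 3155. Of the 2 alpha-specific genes measured, *STE3*, a pheromone receptor, was lower in both NFRI strains at both temperatures and *SAG1*, an agglutinin, higher at 39°C. Of 3 a-specific genes, *BAR1* and *MFA1* were lower at 39°C in NFRI 3236 and *MFA1* at both temperatures in NFRI 3155. The part of these differences in the strain comparisons of the proteasome genes was not tested.

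Before heating, the count of proteasome genes that differed between strains depended on the scaling. With the percentile shift it was 5 for NFRI 3236 minus S288C and 2 for NFRI 3155 minus S288C, and without it 25 and 26, all higher in the NFRI strains, when the median log2 difference of all genes was also 0.93 and 1.14. With the shift, *PRE2*, *RPN1* and *ECM29* were higher and *RPN2* and *RPN8* lower in NFRI 3236 than in S288C, which is 3 and 2 of 35, where 15.4% of all genes were higher and 13.8% lower. For NFRI 3155 minus S288C, *RPN1* was higher and *RPN8* lower, where 16.3% and 13.9% of all genes were. For NFRI 3236 minus NFRI 3155, *RPN2* was lower, where 4.46% of all genes were lower and 4.45% higher. The sizes were 0.71 (SE 0.20, adjusted p = 0.0182) for *PRE2*, 0.60 (SE 0.20, adjusted p = 0.0375) for *RPN1* and 0.85 (SE 0.29, adjusted p = 0.0439) for *ECM29* in NFRI 3236, and 0.69 (SE 0.20, adjusted p = 0.02) for *RPN1* in NFRI 3155. *RPN2* in NFRI 3236 differed by -0.82 (SE 0.21, adjusted p = 0.012) from S288C and by -0.84 (SE 0.23, adjusted p = 0.0381) from NFRI 3155. *RPN8* differed by -0.72 (SE 0.25, adjusted p = 0.0462) in NFRI 3236 and by -0.79 (SE 0.25, adjusted p = 0.0304) in NFRI 3155. Every 1 of these 8 calls was lost when at least 1 array was left out: without the second NFRI 3236 30°C array none of the 5 in NFRI 3236 against S288C remained (0.38 for *RPN1*, -0.64 for *RPN2*), and without either NFRI 3155 30°C array none of those in NFRI 3155. Without the percentile shift *RPN8* turned to 0.18 in NFRI 3236 and 0.32 in NFRI 3155, and *RPN2* to 0.080 in NFRI 3236 against S288C.

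**Figure D3:**
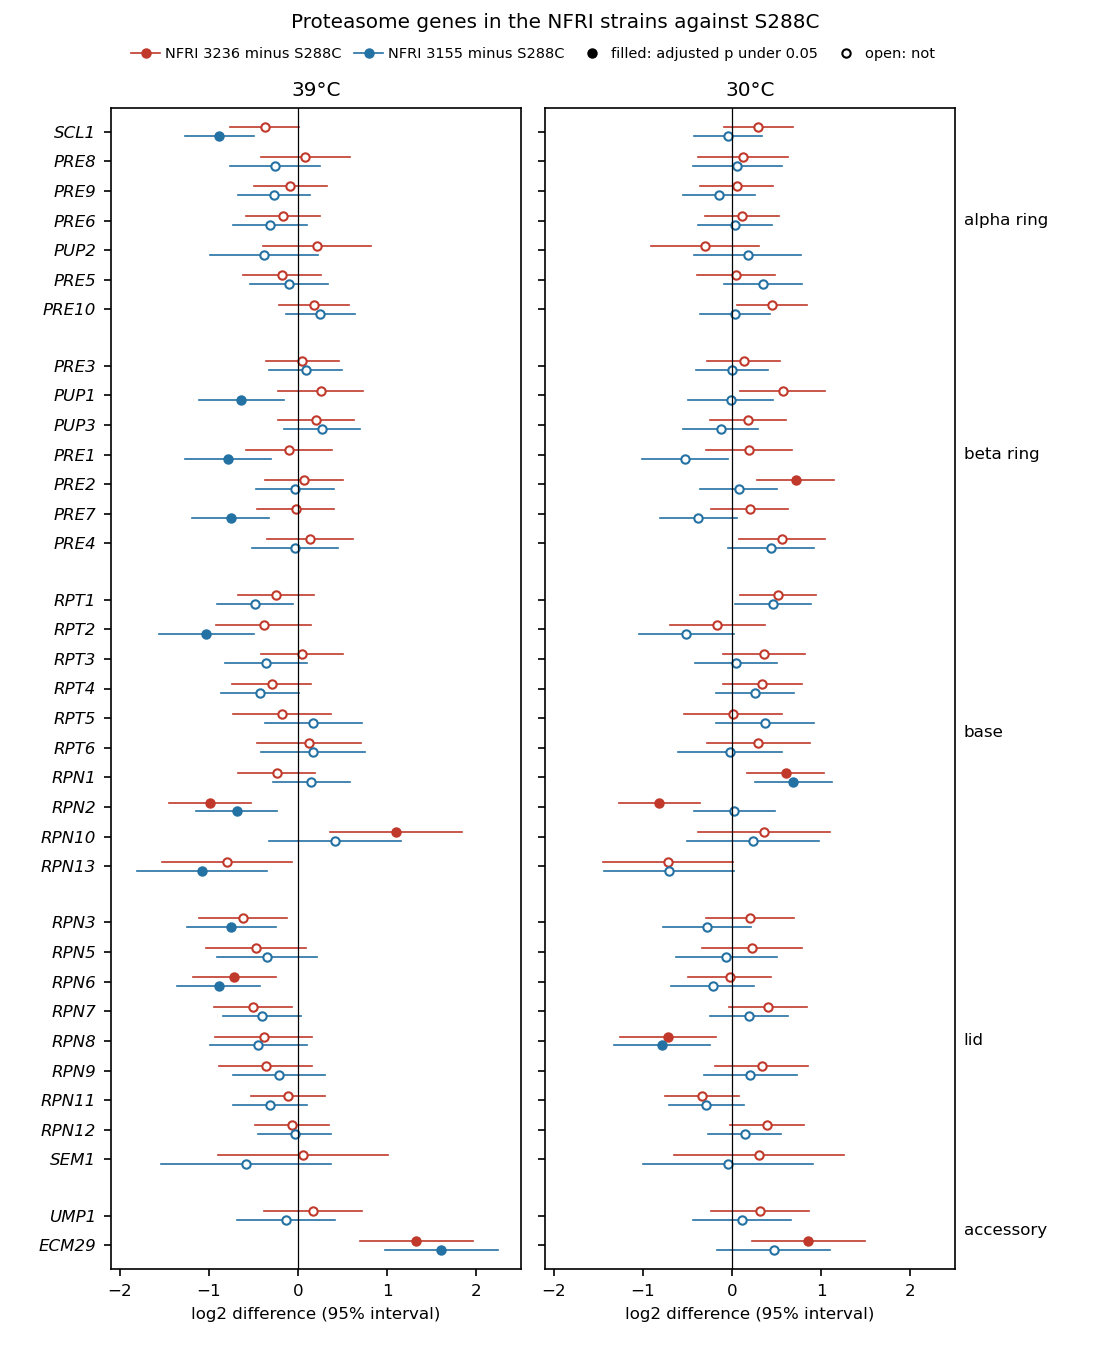
Log2 difference of each proteasome gene in NFRI 3236 and NFRI 3155 minus S288C (x axes) after heating at 39°C (left) and untreated at 30°C (right), with 95% intervals from limma and filled points where the adjusted p was under 0.05. At 39°C 9 NFRI 3155 points are filled left of zero, where 23.1% of all genes were called lower. At 30°C 1 is, where 13.9% of all genes were called lower. *ECM29* lies right of zero throughout.

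After heating, the clearest difference was *ECM29*, which was higher in both NFRI strains than in S288C, by 1.33 (SE 0.29, adjusted p = 0.00486) in NFRI 3236 and by 1.61 (SE 0.29, adjusted p = 0.000839) in NFRI 3155. The NFRI levels of 2.58 to 3.74 lay above the S288C levels of 0.746 to 1.54. In NFRI 3155 this call was kept in all 21 alternatives that used limma. The methods' t-test with Benjamini-Hochberg adjustment called no member at 39°C. In NFRI 3236 the limma call of *ECM29* was lost without the first 39°C array of that strain (1.11). The ubiquitin receptor *RPN10* was also higher in NFRI 3236, by 1.10 (SE 0.34, adjusted p = 0.0294), but not without the second NFRI 3236 39°C array (0.84, adjusted p = 0.191).

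Lower in NFRI 3155 than in S288C at 39°C were 9 members, where 23.1% of all genes were lower: *SCL1*, *PUP1*, *PRE1* and *PRE7* of the core and *RPT2*, *RPN2*, *RPN13*, *RPN3* and *RPN6* of the regulatory particle. *ECM29* was the 1 member higher, where 21.6% of all genes were. The largest were *RPN13* at -1.08 (SE 0.34, adjusted p = 0.0194) and *RPT2* at -1.03 (SE 0.25, adjusted p = 0.00456), followed by *RPN6* at -0.89 and *SCL1* at -0.88. The NFRI 3155 arrays lay below the S288C arrays without overlap for each of these 4, as they did for 29.8% of all genes. Without the second NFRI 3155 39°C array, 3 of the 10 calls were left, those of *SCL1*, *RPN2* and *ECM29*, and *RPN13* was at -0.46 (adjusted p = 0.315) and *RPT2* at -0.70 (adjusted p = 0.0725). The *RPN2* call was lost without the first NFRI 3155 39°C array or the second S288C 39°C array. For NFRI 3236 minus S288C, 2 members were lower, *RPN2* at -0.99 (SE 0.21, adjusted p = 0.00413) and *RPN6* at -0.71 (SE 0.22, adjusted p = 0.0259), where 14.9% of all genes were lower and 13.1% higher. The *RPN6* call was lost without the second NFRI 3236 39°C or the first S288C 39°C array (-0.54 and -0.62). None of these lower calls held when the arrays were not shifted to a common percentile. In that setting 21 members were higher and 0 lower in NFRI 3236 than in S288C, and 1 higher and 0 lower in NFRI 3155, beside medians over all genes of 1.07 and 0.68. *RPN2*, *RPN6* and *PUP1* then changed sign, at 0.15 and 0.42 for *RPN2* and *RPN6* in NFRI 3236 and 0.033 and 0.084 for *RPN2* and *PUP1* in NFRI 3155.

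Between the NFRI strains at 39°C, 2 beta subunits were higher in NFRI 3236, *PUP1* by 0.89 (SE 0.24, adjusted p = 0.0215) and *PRE7* by 0.73 (SE 0.22, adjusted p = 0.0332), where 9.65% of all genes were higher and 10.7% lower. For *PUP1* the NFRI 3236 levels were 7.35 and 10.8, against 5.25 and 4.37 in NFRI 3155, and for *PRE7* they were 10.2 and 9.16, against 6.95 and 4.90. The arrays of the strains did not overlap, but both calls were lost without the second 39°C array of either strain (0.62 without that of NFRI 3236 and 0.76 without that of NFRI 3155 for *PUP1*). The *PRE7* call was also lost without the first NFRI 3236 39°C array, either NFRI 3155 30°C array or the third S288C 30°C array, and its values over these 6 settings were 0.47 to 0.80.

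Genes that work with the proteasome were read from a list of 28: 9 assembly chaperones, 6 activators and bound enzymes, 8 genes that deliver substrates and 5 transcription factors. Of these, 16 rose and 3 fell in NFRI 3236, 21 rose and 2 fell in NFRI 3155, and 19 rose and 1 fell in S288C, with median log2 changes of 0.81, 0.93 and 0.96. Over all tested genes 15.7%, 18.1% and 25.2% were higher and 23.5%, 24.1% and 28.2% lower. Of the genes that deliver substrates 6, 7 and 8 of 8 rose, in the same order of strains. The assembly chaperones gave 5, 7 and 5 of 9 higher and 1 lower in each strain, the activators 4, 5 and 3 of 6 higher and 1, 1 and 0 lower, and the transcription factors 1, 2 and 3 of 5 higher and 1, 0 and 0 lower.

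**Figure D4:**
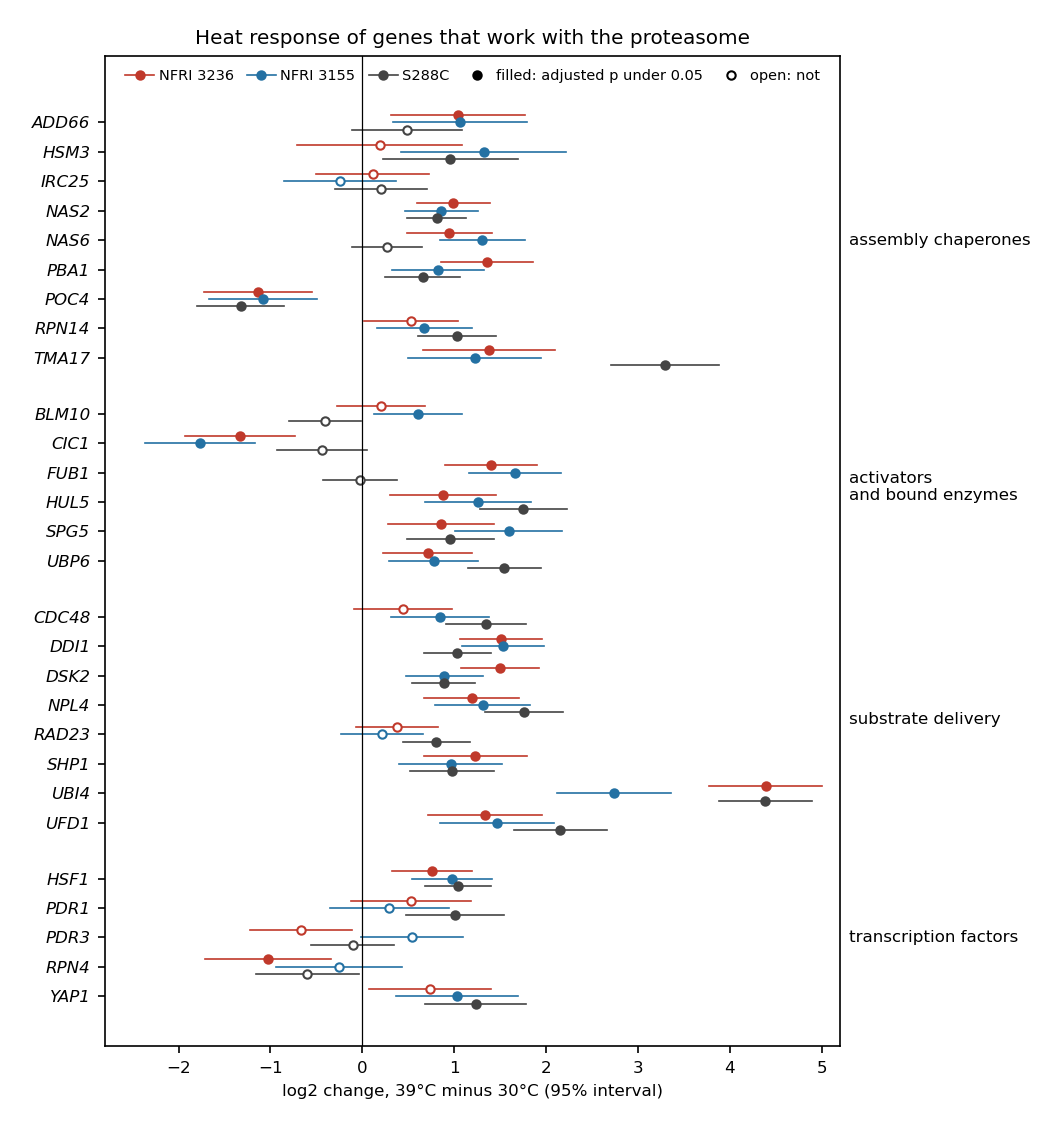
Log2 change at 39°C minus 30°C (x axis) of 28 genes that assemble, activate, feed or regulate the proteasome (y axis) in NFRI 3236, NFRI 3155 and S288C, with 95% intervals from limma and filled points where the adjusted p was under 0.05. *UBI4* lies farthest right, *POC4* lies left of zero in all strains, and *RPN4* is left of zero throughout but filled only in NFRI 3236.

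*UBI4*, the polyubiquitin gene that supplies ubiquitin under stress, changed most. It had 15.2 and 19.3 at 39°C and 0.757 and 0.884 at 30°C in NFRI 3236, 11.3 and 10.6 at 39°C and 1.42 and 1.89 at 30°C in NFRI 3155, and 36.1, 27.5 and 18.7 at 39°C and 1.11, 1.25 and 1.46 at 30°C in S288C. It rose by 4.39 (SE 0.29, adjusted p = 3.2e-07), 2.74 (SE 0.29, adjusted p = 8.46e-06) and 4.39 (SE 0.23, adjusted p = 1.12e-08) on the log2 scale, least in NFRI 3155, where the untreated level was also highest.

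*TMA17*, a chaperone for assembly of the base that is known to be induced by stress, had 1.53 and 2.10 at 39°C and 0.629 and 0.755 at 30°C in NFRI 3236, 3.49 and 1.78 at 39°C and 0.836 and 1.36 at 30°C in NFRI 3155, and 4.05, 3.05 and 2.78 at 39°C and 0.309, 0.388 and 0.303 at 30°C in S288C. It rose by 1.38 (SE 0.33, adjusted p = 0.00564), 1.23 (SE 0.33, adjusted p = 0.00972) and 3.30 (SE 0.27, adjusted p = 5.13e-07), and the untreated level was lowest in S288C. *POC4*, a chaperone of the alpha ring, was the member of this group that fell, by 1.13, 1.08 and 1.32 on the log2 scale in NFRI 3236, NFRI 3155 and S288C.

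*HUL5*, a ubiquitin ligase that extends chains on bound substrates, had 1.62 and 1.4 at 39°C and 0.706 and 0.944 at 30°C in NFRI 3236, 1.69 and 2.25 at 39°C and 0.751 and 0.882 at 30°C in NFRI 3155, and 2.04, 1.25 and 1.27 at 39°C and 0.417, 0.434 and 0.466 at 30°C in S288C. It rose by 0.88 (adjusted p = 0.0188), 1.26 (adjusted p = 0.00202) and 1.75 (adjusted p = 1.93e-05). Of the transcription factors, *YAP1*, an activator of oxidative stress genes, had the largest mean change. It rose by 1.03 (adjusted p = 0.0161) in NFRI 3155 and 1.23 (adjusted p = 0.0011) in S288C, with 0.74 (adjusted p = 0.0751) in NFRI 3236.

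*RPN4*, the activator of the proteasome genes, was called higher in no strain. It had 1.03 and 1.53 at 39°C and 2.50 and 2.61 at 30°C in NFRI 3236, 2.29 and 1.92 at 39°C and 2.82 and 2.20 at 30°C in NFRI 3155, and 0.654, 1.24 and 1.37 at 39°C and 1.61, 1.45 and 1.64 at 30°C in S288C. The heated arrays lay below the untreated ones in NFRI 3236 and S288C and overlapped them in NFRI 3155. *RPN4* fell by 1.03 (SE 0.32, adjusted p = 0.0205) in NFRI 3236, and its changes of -0.25 (SE 0.32, adjusted p = 0.553) in NFRI 3155 and -0.60 (SE 0.26, adjusted p = 0.0686) in S288C did not pass the test. The arrays measure its transcript and not the protein.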

How the data were processed

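Transcripts of the *S. cerevisiae* strains, heated at 39°C or kept at 30°C, were measured on 14 Affymetrix Yeast Genome 2.0 arrays. The deposited values are linear signal intensity, which the authors obtained for each probe set from GCOS 1.4.0 with default settings. The methods speak of independent experiments, and the p-values measure the spread between these arrays only. The methods name 2 experiments, and since the S288C arrays used in them are not named, all 3 per temperature were used. Gene names came from the array annotation, updated through a current gene table. Of 10928 probe sets, 5498 were named for *S. cerevisiae* (5449 genes) and 1746 for *S. pombe*.

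Intensities under 1 were set to 1, taken to log2 and shifted to the 75th percentile of each array. A gene was tested where it exceeded the 20th percentile on every array of at least 1 group, and the brightest probe set was taken, so 5443 genes remained. The test was that of limma 3.58.1 (R 4.3.3), with 6 group means fitted together (8 residual degrees of freedom), two-sided, with Benjamini-Hochberg adjustment over all 5443 genes. The scripts were tested on simulated data. Fold changes are on the scale of shifted intensities, and levels of different probe sets were not compared gene against gene. Precision is limited by the few arrays per group, with a median moderated SD of 0.27 (log2). Probes follow 1 reference sequence, and sequence differences of the NFRI strains were not examined.

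Values on every array are given for the 2 core and 2 regulatory members with the largest rise in each strain, *UMP1* and *ECM29*, any member called lower on heating or called in a difference of heat responses, and the 2 largest called in each direction of each strain difference. *RPT6*, *SEM1* and *POC4* were added after their values were seen. Of the associated genes, the 1 with the largest change in each subgroup and *RPN4* are named. The members and lists were chosen with earlier results of these data known. Alternatives were no shift, quantile normalization, an added 16 units, no low filter, only genes above background on all arrays, a replicate block, only the arrays compared, S288C replicates 1 and 2, the methods' t-test and each array left out.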

Additional observations from a re-analysis of the deposited data

Results flagged for a closer look

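The heat response of several genes differed between strains by the test of the difference itself in limma (39°C minus 30°C, NFRI strain minus S288C, adjusted over all tested genes). Among the proteasome genes these were *SCL1* at -0.84 (SE 0.25, adjusted p = 0.0385) and *RPT1* at -0.94 (SE 0.28, adjusted p = 0.0356), both in NFRI 3155. Both calls were lost without the percentile shift, with the replicate block and when any of several single arrays was left out. Of all tested genes, 4.30% were called higher and 5.82% lower for NFRI 3236, and 7.64% and 8.87% for NFRI 3155. Of the 28 genes that work with the proteasome, 1 was called higher and 1 lower for NFRI 3236, and 3 and 3 for NFRI 3155.

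Among the genes that work with the proteasome, *TMA17*, a base assembly chaperone, rose less in both NFRI strains than in S288C, by -1.92 (adjusted p = 0.0173) for NFRI 3236 and -2.07 (adjusted p = 0.00775) for NFRI 3155. *FUB1*, whose protein binds the core, changed by 1.4 in NFRI 3236, 1.66 in NFRI 3155 and -0.02 in S288C, with differences of 1.43 (adjusted p = 0.0122) for NFRI 3236 and 1.68 (adjusted p = 0.00335) for NFRI 3155. Its level was 0.967 and 0.914 at 39°C and 0.435 and 0.291 at 30°C in NFRI 3236, 1.13 and 1.09 at 39°C and 0.321 and 0.384 at 30°C in NFRI 3155, and 0.298, 0.337 and 0.245 at 39°C and 0.305, 0.281 and 0.302 at 30°C in S288C. In NFRI 3155 the difference from S288C was also positive for *NAS6*, a base assembly chaperone, at 1.04 (adjusted p = 0.0238) and for *BLM10*, a core activator, at 1.01 (adjusted p = 0.0307). It was negative for *CIC1*, which acts as a substrate adaptor and in ribosome assembly, at -1.33 (adjusted p = 0.0244) and for *UBI4* at -1.64 (adjusted p = 0.011). The *CIC1* level ranged from 0.941 to 1.96 on the NFRI 3155 39°C arrays.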

How the results depend on the processing

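The numbers of proteasome genes called (main values in the text) moved by over 1.5 times as follows. Without the percentile shift, 7 were called for heating in NFRI 3155 and 0 for its difference from S288C in heat response; at 30°C 25, 26 and 0 were called for NFRI 3236 minus S288C, NFRI 3155 minus S288C and NFRI 3236 minus NFRI 3155, and at 39°C 21, 1 and 0 in that order. That setting moved the median of all genes for heating to 0.74, 0.13 and 0.56 in NFRI 3236, NFRI 3155 and S288C, with 27.3%, 10.9% and 33.8% of genes higher and 2.22%, 9.24% and 8.25% lower, while the members' medians were 1.70, 0.97 and 1.71. It turned *RPN2* (0.080) and *RPN8* (0.18) at 30°C and *RPN2* (0.15) and *RPN6* (0.42) at 39°C in NFRI 3236 minus S288C, and *RPN8* (0.32) at 30°C and *PUP1* (0.084) and *RPN2* (0.033) at 39°C in NFRI 3155 minus S288C. The cause was not tested. Quantile normalization gave 2 at 30°C and 8 at 39°C for NFRI 3236 minus S288C and 4 at 39°C for NFRI 3236 minus NFRI 3155. With 16 added, NFRI 3236 minus S288C gave 1 for the heat response and 9 at 30°C. With only the arrays compared, heating in NFRI 3155 gave 15, and the strain comparisons gave 9, 5 and 0 at 30°C and 2, 4 and 0 at 39°C. With S288C replicates 1 and 2, the heat response of NFRI 3155 minus S288C gave 1, the 30°C comparisons 1, 0 and 0, and NFRI 3236 minus NFRI 3155 at 39°C 1. The methods' t-test at their threshold gave 16 for heating in NFRI 3155, 17, 8 and 7 at 30°C, and 6 for NFRI 3155 minus S288C and 1 for NFRI 3236 minus NFRI 3155 at 39°C. After Benjamini-Hochberg adjustment it gave 0 and 0 for heating in NFRI 3236 and NFRI 3155, 5 and 0 at 30°C for NFRI 3155 minus S288C and NFRI 3236 minus NFRI 3155, and 0, 0 and 0 at 39°C.

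Leaving out each array in turn gave 16 to 25 genes for heating in NFRI 3236, 12 to 28 in NFRI 3155 and 28 to 33 in S288C; 0 to 1, 0 to 3 and 0 to 0 for the differences in heat response of NFRI 3236 minus S288C, NFRI 3155 minus S288C and NFRI 3236 minus NFRI 3155; and, in that order, 0 to 8, 0 to 4 and 0 to 2 at 30°C and 2 to 6, 3 to 13 and 0 to 5 at 39°C. With 1 array left in a group, it is assumed to vary like the others. Of the heat calls, 12 of 23 in NFRI 3236, 6 of 25 in NFRI 3155 and 27 of 31 in S288C were kept in all 22 alternatives that used limma. The methods' t-test is not among these 22, and after adjustment it kept no heat call in either NFRI strain. No member changed the sign of a heat call in any of the 22.

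With the replicate number as a block, heating gave 21, 20 and 31 genes in NFRI 3236, NFRI 3155 and S288C and the heat response of NFRI 3155 minus S288C gave 0. Whether the numbers pair the samples cannot be told from the deviations of the arrays. Same-numbered arrays had deviation correlations of -0.08 in NFRI 3236 and -0.01 in NFRI 3155. With 2 arrays per temperature, these only mirror the values of the other pairing in sign. In S288C they were 0.05, 0.02 and 0.05, and each array correlated best with its own number. No paired analysis was possible for the strain differences because the numbers lie within strains. The planned motif count was not run, since no promoter sequence was used here.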
